A study of Mus musculus with 4 samples.

Results

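The H3K4me3 and H3K9me3 libraries of MDER 10T cells were compared directly with each other, tile by tile along the 19 autosomes, without the whole-cell extract entering the comparison. The comparison takes 2 of the 4 libraries of the series, chosen by their antibody labels. It covers 531868 of the 566240 tiles of 4 kb that held a read of any library, and 23806 of 23842 tiles of 100 kb. Per the series title, MDER 10T cells are fibroblasts in which MyoD1 can be induced by estrogen. Both groups, like the H3K27me3 library and the whole-cell extract (WCE, chromatin sequenced without immunoprecipitation), are the same cells grown in DMEM/F12 without phenol red and with 10% FCS, and the labels name no treatment with estrogen. The antibodies were AB8580 for H3K4me3 and AB8898 for H3K9me3, both from Abcam. Each group holds 1 library, so no replicate spread exists, and every test on reads below compares these libraries and not conditions.

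Trimethylation of lysine 4 of histone H3 is laid down by SET1 and MLL enzyme complexes and marks the starts of active and CpG-rich genes. Trimethylation of lysine 9 is laid down by SUV39H and SETDB1 enzymes, is bound by HP1 proteins, and is known for pericentromeric satellites, retrotransposons and clusters of zinc finger genes. Both marks sit on the same histone tail and usually occupy different chromatin. A direct comparison shows where one library holds more reads than the other relative to their totals, not which mark is more abundant. Reads that matched more than 2 places were dropped at alignment, so satellites could be measured only where their reads matched 1 or 2 places. All positions are mm8, counted from 1, and no gene table of that build was used here, so regions are named by position.

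After repeated positions were reduced to 1 read, the autosomes held 3086567 H3K4me3, 2101444 H3K9me3, 2933567 H3K27me3 and 2977697 WCE reads. A tested 4 kb tile held a median of 6 reads of the compared libraries together. Ratios were scaled so that the autosomal totals of the libraries are equal, with 95% exact (Clopper-Pearson) intervals. These cover counting error alone, because each group holds 1 library. They may be too narrow even for that, since reads amplified by PCR carry no molecular identifier here and several can stem from 1 molecule. A tile was called in a direction at a Benjamini-Hochberg adjusted p under 0.05 in a one-sided exact binomial test and a scaled ratio of at least 2. Tiles called with H3K4me3 above H3K9me3 are named H3K4me3-high below, those called the other way H3K9me3-high, and adjoining H3K4me3-high tiles form a stretch.

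At 4 kb, nearly all calls were in favour of H3K4me3. Of the tested tiles, 12937 were H3K4me3-high (2.43%) and 345 were H3K9me3-high (0.0649%). H3K4me3-high tiles covered 51.7 Mb and held 42.1% of the H3K4me3 reads against 5.45% of the H3K9me3 reads. With so many of its reads in so little of the genome, H3K4me3 had a lower scaled density elsewhere: outside H3K4me3-high tiles the ratio of H3K4me3 to H3K9me3 was 0.612 (0.611 to 0.613). Over 20537 tiles of 100 kb with at least 50 reads, the median ratio was 0.636, or -0.65 on the log2 scale.

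The scale therefore decides much of the H3K9me3 direction. If the libraries are instead scaled so that this median tile has a ratio of 1, called median scaling below, every log2 ratio of H3K4me3 over H3K9me3 rises by 0.653. Under median scaling 16684 tiles of 4 kb (3.14%) were H3K4me3-high and 2 (0.000376%) were H3K9me3-high. H3K4me3-high tiles made up 97.4% of the 4 kb calls by autosomal totals and 100.0%, rounded, by median scaling. Which scale gives the amounts of the marks on chromatin was not tested, so the counts of H3K9me3-high tiles are given on both, and ratios are by totals unless median scaling is named.

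**Figure D1:**
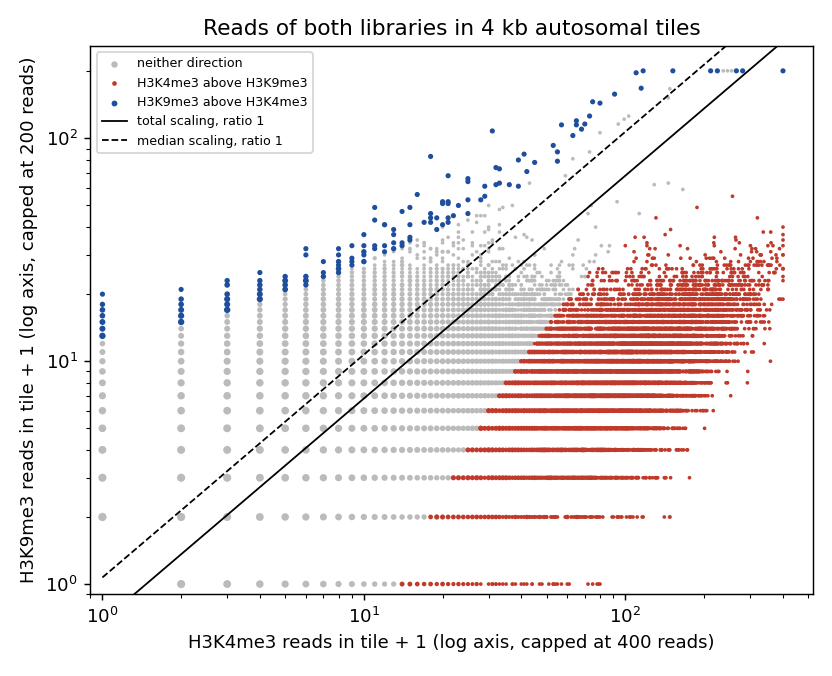
H3K4me3 reads (x) and H3K9me3 reads (y) in 4 kb autosomal tiles, both with 1 read added on log axes and capped as the axis labels state; each point is a pair of read counts, with larger points for more tiles, and the lines mark equal density under each scaling. The 12937 H3K4me3-high tiles reach far to the right at few H3K9me3 reads, while the 345 H3K9me3-high tiles form a thin band near the upper edge of all tiles.

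H3K4me3-high tiles were narrow and mostly single. They formed 10249 stretches, of which 77.8% were 1 tile, with a mean length of 5.05 kb. Over these tiles the pooled ratio of H3K4me3 to H3K9me3 was 7.74 (7.69 to 7.78), a description since the same reads chose the tiles. The ratio hardly depended on length, at 7.90 (7.84 to 7.96) in stretches of 1 tile, 7.5 (7.42 to 7.59) in those of 2 and 7.34 (7.20 to 7.49) in longer ones. Against WCE, which chose no tile, H3K4me3 stood at 6.53 (6.50 to 6.56) and H3K9me3 at 0.844 (0.838 to 0.850). These values are descriptions too, since reads of the compared libraries chose the tiles. H3K27me3, the Polycomb mark, stood at 0.784 (0.779 to 0.789) there. Its value was 0.802 (0.795 to 0.809) in stretches of 1 tile and 0.690 (0.674 to 0.706) in stretches of 3 or more, against 0.844 and 0.843 for H3K9me3.

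The tiles with the highest ratios had next to no H3K9me3 reads, which ranking by ratio favours. Among all 12937 H3K4me3-high tiles, 117 had 0 H3K9me3 reads and the median was 8. Of the 10 highest, 7 had 0 H3K9me3 reads and 3 had 1. The tile on chromosome 13 from 71104001 to 71108000 held 79 H3K4me3, 0 H3K9me3, 4 H3K27me3 and 4 WCE reads. H3K4me3 was at least 17.9-fold higher there against a floor of 3 H3K9me3 reads, and the lower end of the exact interval was 14.2. On chromosome 4 the tile from 3500001 held 78, 0, 7 and 7 reads in the same order. At position 37904001 of chromosome 15 a tile held 147 H3K4me3, 1 H3K9me3, 11 H3K27me3 and 14 WCE reads, a ratio of 100 (17.7 to 3980). Those on chromosome 19 from 6076001 (147 and 1 reads) and chromosome 9 from 41332001 (140 and 1) were alike, while the others of the 10 held 59 to 77 H3K4me3 reads and 0 H3K9me3 reads. All 10 remained H3K4me3-high under median scaling.

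The longest stretches lay on chromosome 2 from 74504001 to 74548000 and chromosome 11 from 96128001 to 96172000, both 44 kb. The first held 1228 H3K4me3, 113 H3K9me3, 117 H3K27me3 and 193 WCE reads, a ratio of H3K4me3 to H3K9me3 of 7.40 (6.10 to 9.05). The second held 1344, 107, 110 and 200 reads in the same order (8.55, 7.02 to 10.5). The highest ratio of the 5 longest, 10.5 (8.32 to 13.5), was on chromosome 6 from 52088001 to 52116000, with 1145 H3K4me3 and 74 H3K9me3 reads. H3K9me3 there stood at 0.647 (0.485 to 0.857) of WCE and H3K27me3 at 0.451 (0.337 to 0.599). The other long stretches, on chromosome 8 from 87852001 and chromosome 11 from 98588001, had ratios of 6.61 and 5.60.

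The called H3K9me3-high 4 kb tiles were few, short and of unlike kinds. Their number holds for this tile size and depth, where a call needed at least 12 reads and the median tested tile held 6. Tiles of 10 kb gave 9276 H3K9me3-high and 10587 H3K4me3-high calls. The 345 tiles covered 1.38 Mb in 320 runs, 93.4% of them a single tile. They held 5251 H3K4me3, 13631 H3K9me3, 10010 H3K27me3 and 9524 WCE reads, a pooled ratio of H3K9me3 to H3K4me3 of 3.81 (3.69 to 3.94). Against WCE, H3K9me3 was at 2.03 (1.98 to 2.08) and H3K4me3 at 0.532 (0.514 to 0.550). Both values are descriptions, since reads of these libraries chose the tiles, and in 4 kb tiles called in neither direction they were 1.01 and 0.619 (0.618 to 0.620). H3K9me3 was at least 2 times WCE in 278 of the 345, H3K4me3 at most 0.5 times WCE in 223, and both held in 175. Over all 506910 tested tiles with a WCE read, 79127, 257856 and 24916 did so. H3K4me3 was at or above WCE in 35 of the 345, against 95373 of the 506910. Of the 345, 55 held 0 H3K4me3 reads, against 76468 of all 531868 tested tiles. These shares are not comparable, because a tile with 0 H3K4me3 reads needed at least 12 H3K9me3 reads to be called. Most tested tiles held fewer reads than that.

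A small set of tiles with very many reads of every library weighed heavily in these sums. WCE exceeded 10 times its mean of 5.60 reads per tested tile in 29 H3K9me3-high tiles, against 42 of all tested tiles. These 29 held 6522 of the 13631 H3K9me3 reads and 6549 WCE reads, and H3K9me3 was only 1.41 times WCE (1.36 to 1.46) there. Of the 29, 18 started within 200 kb of position 2996001, the start of the lowest tile with a read on any autosome, with 10 of these on chromosome 11 and 6 on chromosome 9. The 12 kb run on chromosome 17 from 39448001 to 39460000 alone held 3111 H3K9me3, 1689 H3K4me3, 3993 H3K27me3 and 3128 WCE reads. In the other 316 tiles the ratio of H3K9me3 to H3K4me3 was 6.75 (6.38 to 7.13), H3K9me3 was 3.39 times WCE (3.24 to 3.54), H3K4me3 0.502 times (0.472 to 0.534) and H3K27me3 1.21 times (1.15 to 1.27).

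**Figure D2:**
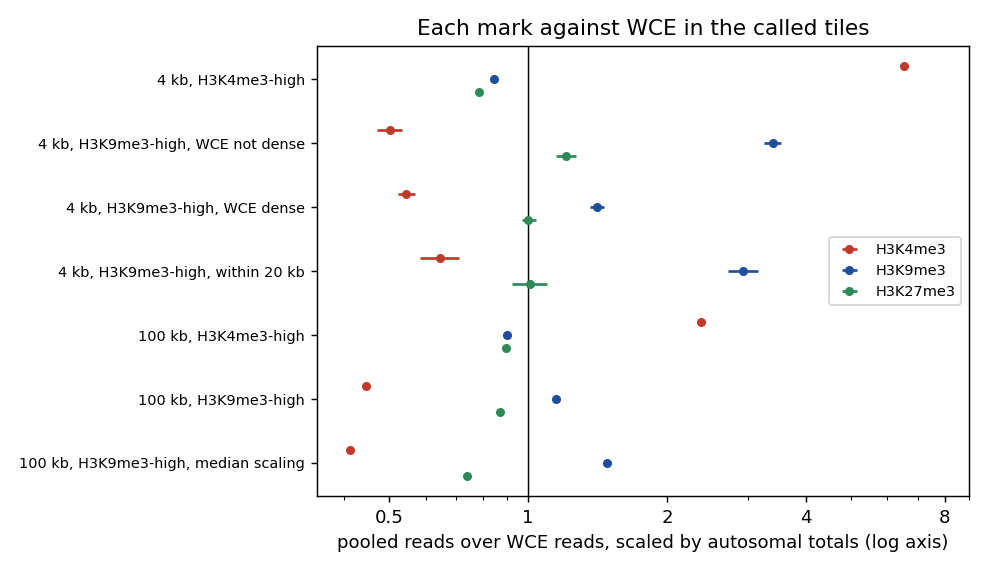
Pooled reads of each mark over WCE reads (log axis, scaled by autosomal totals) in sets of called tiles; points are ratios and bars 95% exact intervals, often narrower than the point, and "WCE dense" marks tiles over 10 times the mean WCE. H3K9me3 stands at 3.39 in the 316 H3K9me3-high 4 kb tiles not dense in WCE and at 1.41 in the 29 dense ones, but at 1.15 in the H3K9me3-high 100 kb tiles and 1.48 in those called by median scaling.

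The highest H3K9me3-high tiles paired about 20 H3K9me3 reads with almost none of H3K4me3, which ranking by ratio favours. Over all 345 the medians were 18 H3K9me3 and 3 H3K4me3 reads. The tile on chromosome 12 from 105680001 to 105684000 held 20 H3K9me3, 1 H3K4me3, 5 H3K27me3 and 6 WCE reads, a ratio of H3K9me3 to H3K4me3 of 29.4 (4.70 to 1218; adjusted p = 0.00206 in the exact binomial test). On chromosome 2 the tile from 179620001 held 22, 2, 6 and 3 reads in the same order, and the tile from 179424001 held 21, 2, 5 and 2. The latter tile had the highest H3K9me3 level of the 10 against WCE, 14.9. Across the 10, H3K9me3 reads ran from 20 to 24 and H3K4me3 reads from 1 to 3, with ratios of 10.8 to 29.4. At the other end, a tile on chromosome 18 from 80744001 held 21 H3K9me3, 2 H3K4me3, 26 H3K27me3 and 15 WCE reads, with H3K9me3 at 1.98 and H3K4me3 at 0.129 times WCE. None of the 10 remained H3K9me3-high under median scaling, where their ratios were 6.85 to 18.7.

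The flanks of H3K4me3 stretches showed a change of order between the libraries. Around 3663 isolated stretches of 1 tile, H3K4me3 peaked at 32.2 reads per kb per 1000000 autosomal reads and stayed above H3K9me3 from -2.75 to 2.75 kb of the centre. Beyond 10 kb H3K4me3 averaged 0.360 and H3K9me3 0.531, close to WCE at 0.535 and H3K27me3 at 0.564. H3K9me3 also rose at the centre, to a mean of 1.53 within 1 kb, but WCE rose to 1.75 and H3K27me3 to 1.42 there, so the rise was shared by all libraries. Over all stretches, the ratio of H3K4me3 to H3K9me3 was 7.74 inside, 1.0 (0.996 to 1.01) in adjoining tiles, 0.725 (0.719 to 0.732) 8 kb away and 0.615 (0.602 to 0.628) 100 kb away. H3K9me3 itself changed little over this range, from 2.53 reads per tile per 1000000 autosomal reads in adjoining tiles to 1.99 at 100 kb, alongside 2.56 and 1.91 for WCE. Under median scaling the ratio was still above 1 at 60 kb (1.03) and was below it at 80 kb (0.978) and 100 kb (0.967). The distance at which the order changes thus depends on the scale.

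**Figure D3:**
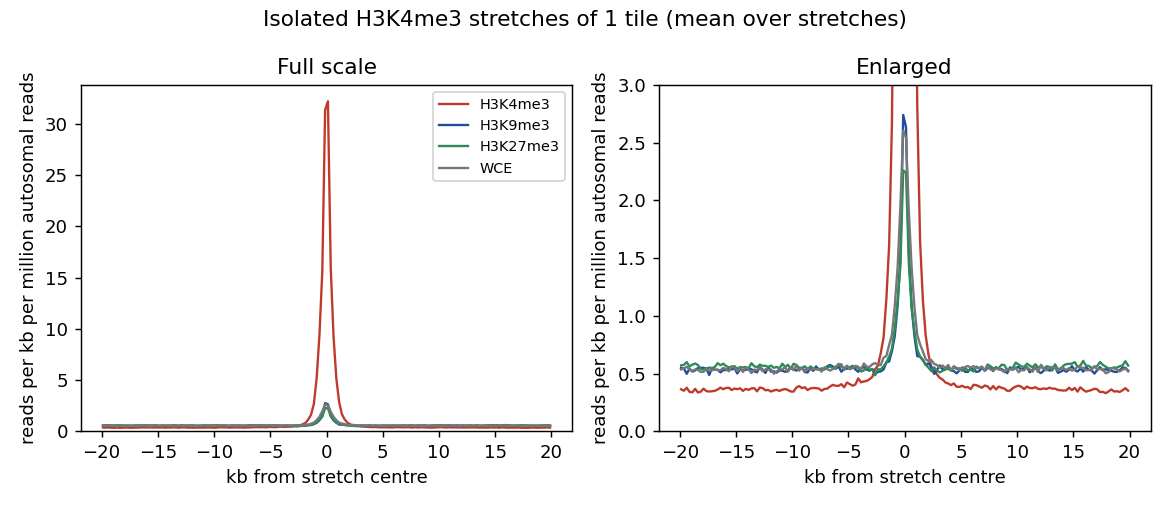
Mean reads per kb per 1000000 autosomal reads of each library by distance in kb from the centre of 3663 isolated H3K4me3 stretches of 1 tile, at full scale and enlarged. H3K4me3 drops below the other 3 libraries outside 2.75 kb, while H3K9me3 lies close to WCE on both sides, at 0.531 and 0.535 beyond 10 kb.

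Some tiles next to an H3K4me3 stretch were nonetheless H3K9me3-high. Within 20 kb of a stretch, counted from tile start to tile start, lay 65 of the 345 H3K9me3-high tiles (18.8%, 14.9 to 23.4%), against 15.1% of all tested tiles. A tile needed at least 12 reads to be called, and reads are denser near stretches: of the 107049 tested tiles with that many, 26.3% lay within 20 kb. Directly adjoining a stretch were 12 (3.48%, 1.81 to 6.0%), against 3.70% of tested tiles and 8.21% of those with at least 12 reads. The shares of H3K9me3-high tiles close to a stretch were below those of tiles with enough reads, which cannot be read as avoidance of stretches. The 12 reads could be of either library, and H3K4me3 reads are themselves denser near stretches, so the filter favours tiles there. The 107049 tiles also include the 12937 H3K4me3-high ones. Whether H3K9me3-high tiles lie nearer to stretches or farther from them than comparable tiles was not tested. In the 65 tiles H3K9me3 stood at 2.92 times WCE (2.71 to 3.15), H3K4me3 at 0.645 (0.585 to 0.710) and H3K27me3 at 1.01 (0.925 to 1.10). In the 280 farther tiles H3K9me3 was at 1.92 (1.86 to 1.97), where 25 of the 29 tiles dense in WCE lie.

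Both tiles that were H3K9me3-high by totals as well as by median scaling lay within 20 kb of a stretch. On chromosome 8 the tile from 73524001 to 73528000 held 82 H3K9me3, 17 H3K4me3, 22 H3K27me3 and 16 WCE reads. Its ratio of H3K9me3 to H3K4me3 was 7.08 (4.17 to 12.7) by totals and 4.51 by median scaling, with adjusted p of 4.67e-13 and 1.70e-05 in the exact binomial test. H3K9me3 there was 7.26 times WCE, against 1.01 in 4 kb tiles called in neither direction. H3K4me3 was 1.03 times WCE, against 0.619 in those tiles, so it was raised too, but less. The H3K4me3 peak began about 10 kb farther along, with 131 H3K4me3 and 10 H3K9me3 reads in the kb centred 12.5 kb from the tile's centre. On chromosome 15 the tile from 76000001 to 76004000 held 107 H3K9me3, 30 H3K4me3, 25 H3K27me3 and 18 WCE reads. Its ratio was 5.24 (3.47 to 8.14) by totals and 3.33 by median scaling, with H3K9me3 at 8.42 and H3K4me3 at 1.61 times WCE. The next tile, from 76004001, held 65 H3K9me3 and 24 H3K4me3 reads, and the H3K4me3 peak followed, with 173 H3K4me3 and 12 H3K9me3 reads in the kb 24.5 kb from the first tile's centre.

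In 12 tiles that directly adjoin a stretch, H3K9me3 exceeded H3K4me3 by autosomal totals, and none of them was H3K9me3-high under median scaling. On chromosome 6 the tile from 48524001 to 48528000 was the only one with an H3K4me3-high tile on each side. It held 60 H3K9me3, 38 H3K4me3, 24 H3K27me3 and 19 WCE reads, a ratio of H3K9me3 to H3K4me3 of 2.32 (1.52 to 3.58) by totals and 1.48 by median scaling. Its neighbours held 65 H3K4me3 and 12 H3K9me3 reads on the lower side and 121 and 20 on the higher side, so the order of the libraries turned over within 4 kb on both. Within the tile, 23 and 25 of the H3K9me3 reads lay in the third and the fourth kb, where H3K4me3 had 6 and 8.

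On chromosome 17 the tile from 56144001 to 56148000 held 29 H3K9me3, 5 H3K4me3, 19 H3K27me3 and 16 WCE reads (8.52, 3.26 to 28.2), beside a tile with 112 H3K4me3 and 17 H3K9me3 reads. On the same chromosome the tile from 32764001 held 20 H3K9me3 and 4 H3K4me3 reads, beside one with 78 H3K4me3 and 10 H3K9me3 reads. These were the named tiles that touch a stretch. Next to a strong peak, the tile on chromosome 15 from 99556001 held 14 H3K9me3 and 0 H3K4me3 reads, at least 6.85-fold higher against a floor of 3 H3K4me3 reads (exact lower limit 4.87). It adjoined a tile with 197 H3K4me3 and 17 H3K9me3 reads, the strongest H3K4me3 neighbour of the 12. Others carried both marks above WCE: on chromosome 16 the tile from 17716001 held 52 H3K9me3, 27 H3K4me3 and 8 WCE reads, and on chromosome 10 the tile from 79144001 held 34, 14 and 4. The tile on chromosome 11 from 3096001 (115 H3K9me3, 69 H3K4me3 and 131 WCE reads) is among those dense in WCE, with H3K9me3 at 1.24 times WCE. Under median scaling the ratios of H3K9me3 to H3K4me3 were 1.80, 2.27 and 1.56 in these last tiles on chromosomes 16, 10 and 11, and 5.42 and 4.67 in the named tiles on chromosome 17. Apart from the tiles named by rule, these were picked after their values were seen.

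**Figure D4:**
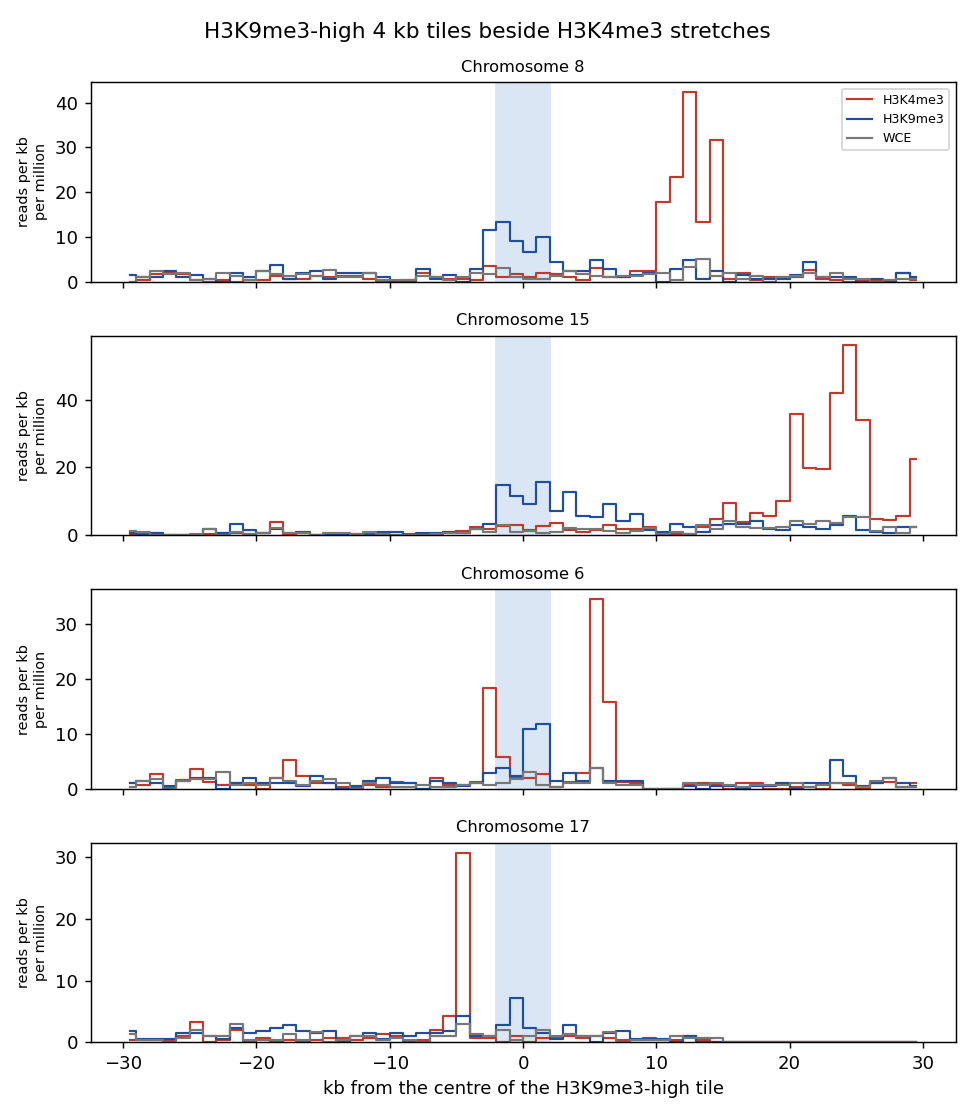
Reads per kb per 1000000 autosomal reads of H3K4me3, H3K9me3 and WCE by distance in kb from the centre of 4 H3K9me3-high tiles (shaded), on chromosomes 8, 15, 6 and 17, picked after their values were seen. Over each shaded tile as a whole H3K9me3 exceeds H3K4me3 and WCE, and H3K4me3 peaks outside it.

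The remaining named tiles near a stretch did not adjoin one. Those on chromosome 7 from 29868001 and chromosome 10 from 81484001 each held 22 H3K9me3 and 3 H3K4me3 reads (10.8, 3.24 to 56.2), 8 kb from a stretch. A tile on chromosome 5 from 143520001 held 48 H3K9me3, 10 H3K4me3, 12 H3K27me3 and 14 WCE reads (7.05, 3.52 to 15.6). The other 4, on chromosomes 2, 6, 7 and 14, held 20 to 23 H3K9me3 and 3 to 5 H3K4me3 reads. Apart from the tile on chromosome 8, these named tiles were not H3K9me3-high under median scaling.

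At 100 kb the balance of calls turned round. H3K9me3-high tiles numbered 8118 (34.1%, 812 Mb) and H3K4me3-high tiles 1820 (7.65%, 182 Mb), so H3K4me3-high tiles made up 18.3% of calls. Under median scaling they made up 80.7%, with 4537 tiles H3K4me3-high (19.1%) and 1083 H3K9me3-high (4.55%). In the 8118 tiles H3K9me3 stood at 1.15 times WCE (1.14 to 1.15) and H3K4me3 at 0.445 (0.443 to 0.446), as pooled reads. H3K4me3 was below WCE in general: over all tested 100 kb tiles the medians were 0.945 for H3K9me3 and 0.568 for H3K4me3. Among the H3K9me3-high tiles the medians were 1.02 and 0.395. Of the 8117 with a WCE read, 307 had H3K9me3 at 2 times WCE or more and 6110 had H3K4me3 at or under 0.5 times WCE. Over all 23754 tested 100 kb tiles with a WCE read, 367 and 9527 did so. Most tiles of either kind thus lay among the H3K9me3-high ones, a description since reads of the same libraries chose those tiles. In the 1083 tiles of median scaling H3K9me3 was 1.48 times WCE (1.46 to 1.49) and H3K4me3 0.411 (0.406 to 0.416). H3K27me3 was below WCE in both, at 0.868 (0.865 to 0.871) and 0.738 (0.730 to 0.746).

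**Figure D5:**
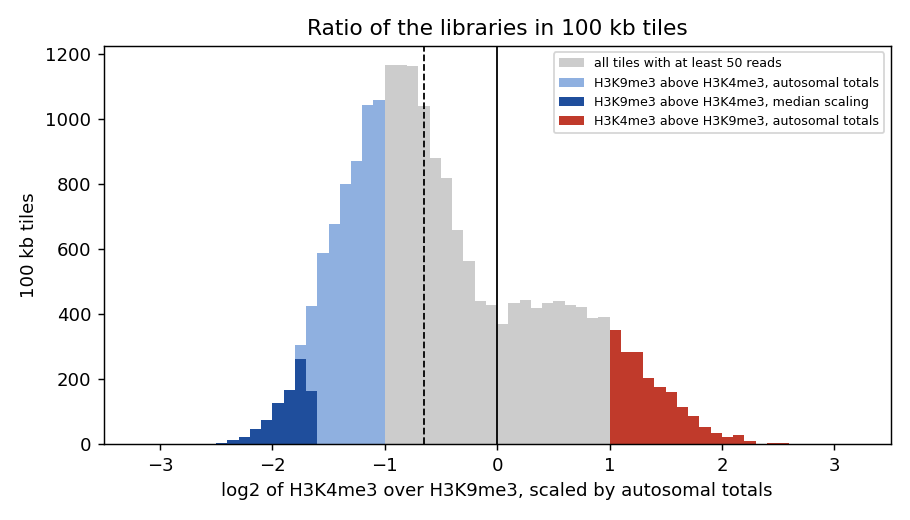
Number of 100 kb tiles with at least 50 reads by log2 ratio of H3K4me3 over H3K9me3, scaled by autosomal totals; colours mark called tiles, the solid line equal density by totals and the dashed line the median tile at -0.65. The peak of the distribution lies left of 0, and the tiles called H3K9me3-high by median scaling are its left tail.

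The ratio of a 100 kb tile went with the number of H3K4me3-high 4 kb tiles in it. The 13967 tiles without an H3K4me3-high 4 kb tile had a median log2 ratio of H3K4me3 over H3K9me3 of -0.94 (quartiles -1.27 and -0.63). With 1 such 4 kb tile the median was 0.31, with 2 it was 0.75 and with 3 or more 1.2, as the same reads enter both sizes. All 1820 H3K4me3-high 100 kb tiles held at least 1, with a median of 3. These 4 kb tiles held 76.3% of their H3K4me3 reads, and the rest of the tile had a ratio of 0.819 (0.814 to 0.825), above the 0.612 of all autosomal sequence outside H3K4me3-high tiles. Of the 8118 H3K9me3-high tiles, 1 held an H3K4me3-high 4 kb tile, on chromosome 15 from 74300001 to 74400000, with 283 H3K9me3, 199 H3K4me3, 345 H3K27me3 and 237 WCE reads. Of the 345 H3K9me3-high 4 kb tiles, 188 (54.5%, 49.1 to 59.8%) lay in these 8118 tiles. The share was 32.5% of all tested 4 kb tiles and 11.9% of those with at least 12 reads. In H3K4me3-high 100 kb tiles lay 14 of the 345 (4.06%), against 8.21% and 15.6%. These are descriptions, since reads that called a 4 kb tile also count in the 100 kb tile around it. The tiles with at least 12 reads also include the 12937 H3K4me3-high ones.

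The H3K4me3-high 100 kb tile with the highest ratio lay on chromosome 11 from 29000001 to 29100000, with 305 H3K4me3, 28 H3K9me3, 55 H3K27me3 and 102 WCE reads (7.42, 5.03 to 11.3). On chromosome 19 the tile from 8800001 held 1498, 170, 211 and 331 reads in the same order (6.0, 5.12 to 7.07). That on chromosome 15 from 102800001 held 1489, 192, 365 and 334 (5.28, 4.54 to 6.17). Ranking by ratio favours tiles low in H3K9me3, which was under WCE in 14010 of 23754 tested 100 kb tiles with a WCE read. The 10 highest had ratios of 4.76 to 7.42, with H3K9me3 at 0.389 to 0.860 of WCE. The longest run covered 700 kb of chromosome 3 from 88900001 to 89600000, with 3410 H3K4me3 and 859 H3K9me3 reads (2.70, 2.51 to 2.92), where H3K9me3 equalled WCE (1.0, 0.915 to 1.09).

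Named H3K9me3-high 100 kb tiles differed in which library set them apart. On chromosome 6 the tile from 73500001 to 73600000 held 84 H3K9me3, 20 H3K4me3, 47 H3K27me3 and 116 WCE reads, a ratio of H3K9me3 to H3K4me3 of 6.17 (3.75 to 10.6). H3K9me3 there was level with WCE (1.03) and H3K4me3 was at 0.166. On chromosome 5 the tile from 133700001 held 87 H3K9me3, 22 H3K4me3, 42 H3K27me3 and 52 WCE reads (5.81, 3.61 to 9.74). There H3K9me3 was 2.37 times WCE and H3K4me3 0.408. The tile on chromosome 7 from 6100001, with 90, 29, 48 and 47 reads in the same order, had the highest H3K9me3 level of the 10 against WCE, 2.71. All 10, with ratios of 4.44 to 6.17, remained H3K9me3-high under median scaling.

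The longest runs of H3K9me3-high 100 kb tiles were not raised in H3K9me3 relative to WCE. The runs on chromosome 8 from 29200001 to 31900000 and chromosome 18 from 85200001 to 87900000 each covered 2700 kb. The first held 1540 H3K9me3, 808 H3K4me3, 1103 H3K27me3 and 2042 WCE reads (2.80, 2.57 to 3.05), and the second 1270, 700, 975 and 1916 (2.66, 2.43 to 2.93). Over the 5 longest runs, which also lay on chromosome 12 from 61300001, chromosome 10 from 122700001 and chromosome 6 from 43800001, H3K9me3 was 0.798 to 1.07 times WCE. H3K4me3 was at 0.280 to 0.398 and H3K27me3 at 0.466 to 0.638 of WCE, so the other marks were lower there than H3K9me3. Their ratios under median scaling, 1.68 to 1.89, did not reach 2.

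Shorter runs did carry raised H3K9me3. By median scaling the longest, picked after the values were seen, covered 700 kb of chromosome 4 from 152000001 to 152700000 and 700 kb of chromosome 15 from 86800001 to 87500000. The first held 1503 H3K9me3, 628 H3K4me3, 750 H3K27me3 and 845 WCE reads, with H3K9me3 2.52 times WCE (2.32 to 2.75) and H3K4me3 0.717 (0.646 to 0.796). The second held 1479, 630, 786 and 978 reads in the same order, with H3K9me3 at 2.14 (1.98 to 2.33) and H3K4me3 at 0.621 (0.561 to 0.688). H3K27me3 stood at 0.901 and 0.816 of WCE in these runs, nearer to WCE than in the 2700 kb runs above.

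The ratio of the libraries also differed between autosomes. H3K4me3 over H3K9me3 was highest on chromosome 11 (1.21, 1.2 to 1.21) and chromosome 19 (1.18, 1.17 to 1.19) and lowest on chromosome 12 (0.894, 0.887 to 0.902). Chromosome 11 also had the most H3K4me3-high 4 kb tiles, 41.4 per 1000 tested. H3K9me3-high 4 kb tiles were most frequent on chromosome 8, at 42 of 28906 (1.45 per 1000, 1.05 to 1.96), and least on chromosome 1, at 4 of 42074 (0.0951 per 1000, 0.0259 to 0.243). Chromosome 1 nevertheless had the largest share of H3K9me3-high 100 kb tiles, 39.4%, next to 39.3% on chromosome 8. WCE averaged 4.46 reads per tested tile on chromosome 1 and 6.98 on chromosome 8. The part of this read density in the 4 kb counts was not tested.

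Ratios were also taken from the strand that did not choose a tile. Called from forward reads alone, 10491 tiles were H3K4me3-high (2.20%), with a ratio of 8.57 in forward reads and 8.04 (7.97 to 8.12) in reverse reads. From reverse reads alone there were 10528 (2.21%), with 8.59 in reverse and 8.07 (8.0 to 8.15) in forward reads. In the H3K9me3 direction 25 tiles were called from each strand (0.00524% and 0.00525%). Over these 25 the ratio of H3K9me3 to H3K4me3 went from 2.81 in forward reads to 2.60 (2.44 to 2.76) in reverse reads, and from 2.80 in reverse to 2.60 (2.44 to 2.76) in forward reads. All but 8 of each were dense in WCE. In these 8 the ratio of H3K9me3 to H3K4me3 went from 6.61 in forward reads to 3.54 (2.81 to 4.50) in reverse reads, and from 7.06 in reverse to 3.73 (2.84 to 4.94) in forward reads. H3K9me3 in the strand not used stood at 6.28 (4.69 to 8.56) and 4.36 (3.26 to 5.90) times WCE. Strands can share copies of a fragment, so they are not fully separate. The ratio was lower in the strand not used in each of these sets, with the largest drop in the sets of 8 tiles, which hold few reads.

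Reads with 2 reported positions, which took no part in the calls, kept the same order. In the H3K4me3-high tiles they numbered 25741 for H3K4me3 and 3898 for H3K9me3, a ratio of 4.50 (4.35 to 4.65). In the 316 H3K9me3-high tiles not dense in WCE there were 729 H3K9me3, 366 H3K4me3 and 401 WCE reads of this kind, a ratio of H3K9me3 to H3K4me3 of 2.93 (2.58 to 3.33). Over all tiles that ratio was 1.39 (1.38 to 1.40), so the excess in these tiles was larger than the general one. Tested by themselves, such reads gave 387 H3K4me3-high (0.307%) and 63 H3K9me3-high (0.050%) tiles of 125923. Such a read counts at either of its places, and which one it came from is unknown.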

How the data were processed

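The deposited files list read positions per chromosome, negative for reads of the reverse strand, and no counts or peaks. Per the file headers, the authors aligned reads to mm8 with Bowtie (options e 70, k 2, m 2, n 2, l 36); its version is not given in the sources used here. Per the labels' protocols, chromatin of 500 bp mean length had 18 PCR cycles, and inserts of 50 to 200 nt were kept. Reads with 1 position were reduced to 1 per signed position, moved 60 bp along their strand and counted in 4 kb and 100 kb autosomal tiles. Tiles with at least 1 read of either library were tested across all tiles of their size, with adjustment within each direction. Named tiles were, per list, the 10 called tiles with the highest log2 ratio after adding 1 read, with at least 20 reads of the higher library (4 kb) or 100 of both (100 kb), and the 5 longest runs. The comparison, lists and distances were chosen with earlier results of these data known. The calling was tested on simulated data. Computation used scipy 1.17.1 and numpy 2.4.6 under Python 3.11.15, with plots by matplotlib 3.10.9. Alternatives changed scaling, repeats, shift, tile start and size, thresholds, test and depth.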

Additional observations from a re-analysis of the deposited data

Results flagged for a closer look

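Reads with 2 reported positions, which the comparison left out, showed 172 tiles of 4 kb with H3K4me3 above H3K9me3 that reads with 1 position had not called. In them H3K4me3 had 13917 such reads, 7.04 times WCE (6.71 to 7.39). In the other direction there were 41 such tiles, where H3K9me3 had 2558 such reads against 1327 for H3K4me3 and stood at 1.64 times WCE (1.55 to 1.74). Examples are chromosome 13 from 17776001 (66 H3K4me3, 1 H3K9me3 and 13 WCE reads) and chromosome 7 from 114716001 (20 H3K9me3, 1 H3K4me3 and 6 WCE reads).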

How the results depend on the processing

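The count of H3K4me3-high 4 kb tiles stayed within 1.5 times of 12937 under every alternative run except 1 kb tiles (19449). The H3K9me3-high direction at 4 kb depended on the procedure. Its 345 tiles, and the 65 within 20 kb of a stretch, became 2 and 2 under median scaling and 2 and 2 with scaling by reads outside tiles where H3K4me3 exceeded a uniform background. With every read kept they were 1064 and 165, at an adjusted p under 0.01 86 and 18, and with H3K4me3 thinned to the H3K9me3 total 78 and 16. A two-sided test adjusted once, where the many H3K4me3 calls ease the threshold, gave 1870 and 307, and testing only tiles with at least 10 reads, with fewer tests, gave 1623 and 285. Tiles of 1 kb gave 35 and tiles of 10 kb 9276. With stretches taken from H3K4me3 reads alone, 150 of the 345 lay within 20 kb or inside a stretch. These stretches took in 25394 tiles of 4 kb instead of 12937, and an H3K9me3-high tile could be among them. The share of all tested tiles near them was not computed, so the 150 cannot be read as closer proximity. With the stretches as reported, 12 directly adjoined one. At 100 kb, H3K4me3-high and H3K9me3-high tiles numbered 4537 and 1083 under median scaling, 5429 and 285 with scaling outside H3K4me3 tiles, 392 and 2075 at a ratio of 3, and 3501 and 12610 at 1.5. The median log2 ratio at 100 kb went from -0.65 to -0.68 with every read kept and to 0.20 with scaling outside H3K4me3 tiles, since that scale is set by construction on the remaining reads. Leaving out tiles dense in WCE, an alternative chosen after seeing the data, left 316 and 61. Named tiles with 0 reads of a library gave no ratio to follow across alternatives, although their calls were counted. No paired analysis was possible because each group holds 1 library. With a median of 6 reads per 4 kb tile, an H3K9me3-high tile needed at least 12, so smaller excesses were not detectable at this depth.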

Other observations

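On the X chromosome, which the autosomal comparison left out, 54824 H3K4me3 and 37440 H3K9me3 reads gave a ratio of H3K4me3 to H3K9me3 of 0.997 (0.984 to 1.01) by autosomal totals.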
